A study of Mus musculus with 4 samples.

Results

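The stefin A family of the mouse was followed in lung RNA through its 7 rows in the processed files, Stfa1, Stfa2, Stfa3, Stfa2l1, BC100530, BC117090 and Gm5483, of 23282 rows in all. The 7 were chosen by symbol, as close copies within a gene cluster, at a time when their log2 values in these same libraries were known, so those values are given as a description and none of them is tested. The CDF1 mice, hybrids of the BALB/c and DBA/2 strains, were male. Mice without tumor formed the normal control group, E(-)T(-), and, after treadmill running, the normal exercise group, E(+)T(-). Mice with tumor formed the cancer control group, E(-)T(+), and, after running, the cancer exercise group, E(+)T(+). Tumors came from CT26, a mouse colorectal carcinoma cell line that was injected into the tail vein. Each group held 10 mice, per the labels at postnatal day 28, an age that the methods give for purchase. There was 1 library per group, and the study says that calf muscle came from a representative mouse of each group and that lung was examined in a similar way, without saying outright whether the lung RNA was from a single mouse. No difference given here therefore has a replicate check, and the intervals cover counting error only.

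Stefins are the intracellular branch of the cystatins. They are small proteins without a signal peptide that bind in the active-site cleft of papain-like cysteine proteases, such as cathepsins B, H, L and S, and block them reversibly. The human genome holds a single stefin A gene, whereas in the mouse the gene has multiplied into a cluster on chromosome 16. In the mouse the copies are known from neutrophils and their bone marrow precursors and from inflamed tissue, and stefin A is also known from the upper layers of stratified epithelium such as epidermis.

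In the GENCODE vM21 annotation of GRCm38 the 7 genes lay within 298.582 kb, at chr16:36156811-36455392, and each was protein-coding with 3 exons. On the plus strand they were Stfa2l1 at chr16:36156811-36161953, Gm5483 at chr16:36184212-36188111 and Stfa1 at chr16:36276951-36285373. On the minus strand they were BC117090 at chr16:36321665-36334332, BC100530 at chr16:36359382-36367748, Stfa2 at chr16:36403992-36408457 and Stfa3 at chr16:36450537-36455392. RefSeq names Gm5483 Cstdc4, BC100530 Cstdc5 and BC117090 Cstdc6. The antisense gene Gm15845 overlaps BC100530 by 679 bases, and it has no row in the files.

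The coding sequences are copies of each other to differing degrees, which bears on how far a read can be given to a single member. Over the 21 pairs, identity of the annotated coding sequences ran from 73.4% to 98.0% with a median of 79.5%. Closest copies were Stfa2 with Stfa2l1 at 96.5%, and Stfa1, BC117090 and BC100530 at 93.5% to 98.0%, while Gm5483 and Stfa3 stood apart from both. The stretches printed next are 75 coding bases from each member, 5′ to 3′, chosen because they cross the first inhibitory loop, which enters the protease. Capitals mark bases that differ from Stfa2.
Stfa2: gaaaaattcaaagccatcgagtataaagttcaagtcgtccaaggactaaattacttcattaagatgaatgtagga
Stfa2l1: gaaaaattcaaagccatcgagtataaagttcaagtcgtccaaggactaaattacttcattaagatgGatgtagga
Stfa3: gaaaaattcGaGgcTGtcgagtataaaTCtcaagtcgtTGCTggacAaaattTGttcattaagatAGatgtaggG
Gm5483: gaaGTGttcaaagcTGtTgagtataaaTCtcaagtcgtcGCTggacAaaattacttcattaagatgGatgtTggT
Stfa1: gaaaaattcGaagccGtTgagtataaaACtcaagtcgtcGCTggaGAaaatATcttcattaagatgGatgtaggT
BC117090: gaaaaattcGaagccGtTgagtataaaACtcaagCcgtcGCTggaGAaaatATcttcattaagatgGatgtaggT
BC100530: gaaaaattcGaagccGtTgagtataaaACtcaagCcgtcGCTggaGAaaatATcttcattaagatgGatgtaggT
Stfa2l1 differed from Stfa2 at 1 base of this stretch and the other members at 14 to 16. BC117090 and BC100530 were identical over it, so that no read inside it could tell them apart. The codons of the loop were caagtcgtccaagga in Stfa2 and Stfa2l1, caagtcgtcgctgga in Gm5483 and Stfa1, caagccgtcgctgga in BC117090 and BC100530, and caagtcgttgctgga in Stfa3. Reads were 75 bases long and came from transcript ends, whose windows were not examined apart from the rest. Of all windows of that length in the annotated transcripts, 22.4% of those in BC100530 were also in BC117090 or Stfa1, and 20.4% of those in BC117090 were in BC100530. In Gm5483 the shared part was 23.5%, with the neighbouring stefin gene 2010005H15Rik. It was 10.7% in Stfa1, 7.83% in Stfa2l1, 5.79% in Stfa2 and 0% in Stfa3. How the authors' counting divided such reads was not stated, so values of single members are uncertain and the sum over the family is given beside them.

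The promoters are shown since the members moved together across the libraries. RefSeq's table for GRCm38.p6 held 250 bases before to 50 after the start for 6 of the 7, and BC117090 had no entry. Those of Stfa2 at chr16:36408314-36408613, Stfa3 at chr16:36455343-36455642 and BC100530 at chr16:36367521-36367820 are on the minus strand, and that of Gm5483 at chr16:36183962-36184261 is on the plus strand. Each is printed 5′ to 3′, and capitals mark matches to the C/EBP letters TTNCNNAA and the PU.1 letters GAGGAA on either strand and runs of 10 or more bases that all 6 promoters share.
Stfa2: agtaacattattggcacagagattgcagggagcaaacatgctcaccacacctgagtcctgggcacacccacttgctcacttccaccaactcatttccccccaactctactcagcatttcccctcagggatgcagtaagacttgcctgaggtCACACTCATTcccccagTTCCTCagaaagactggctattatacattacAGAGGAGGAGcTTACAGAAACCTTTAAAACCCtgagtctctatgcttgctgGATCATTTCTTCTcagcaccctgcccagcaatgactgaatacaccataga
Stfa3: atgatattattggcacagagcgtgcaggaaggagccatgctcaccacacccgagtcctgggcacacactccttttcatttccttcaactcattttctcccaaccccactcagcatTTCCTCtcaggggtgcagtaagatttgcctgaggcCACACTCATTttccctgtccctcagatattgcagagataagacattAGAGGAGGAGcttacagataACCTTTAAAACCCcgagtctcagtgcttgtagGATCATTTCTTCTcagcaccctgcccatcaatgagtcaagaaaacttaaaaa
BC100530: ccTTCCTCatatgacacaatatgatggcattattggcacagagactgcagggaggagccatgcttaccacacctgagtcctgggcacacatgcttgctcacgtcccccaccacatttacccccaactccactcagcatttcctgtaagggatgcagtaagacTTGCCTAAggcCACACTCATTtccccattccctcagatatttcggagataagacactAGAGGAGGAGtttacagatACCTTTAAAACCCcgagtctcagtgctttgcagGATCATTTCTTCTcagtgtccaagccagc
Gm5483: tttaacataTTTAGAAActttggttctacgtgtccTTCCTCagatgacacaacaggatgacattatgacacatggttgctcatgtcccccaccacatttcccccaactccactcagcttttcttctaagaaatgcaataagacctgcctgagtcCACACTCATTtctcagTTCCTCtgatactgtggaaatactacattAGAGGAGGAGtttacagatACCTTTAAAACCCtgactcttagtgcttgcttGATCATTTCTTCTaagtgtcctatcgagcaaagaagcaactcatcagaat
All 6 promoters held acctttaaaaccc and gatcatttcttct, which were found in 9 and 10 of the 32851 promoters of the table, 0.0274% and 0.0304%. The former began 32 to 36 bases before the listed start in the members other than BC100530, where it began 12 bases before. The other shared runs were cacactcatt, in 0.113% of all promoters, and agaggaggag, in 1.03%. Letters for factors of myeloid cells are common in promoters at large. TTNCNNAA was in 5 of the 6 members and in 40.7% of all promoters, and GAGGAA was in 6 of 6 and in 28.3%. Stfa3 was without a match to TTNCNNAA. TTCNNNGAA for STAT was in 1 of 6 against 8.30%, TGANTCA for AP-1 in 1 of 6 against 7.81%, AGATAA for GATA in 3 of 6 against 11.2%, and TATAAA in 0 of 6 against 13.6%. The promoters of Stfa2 and Stfa2l1 were 90.5% identical and those of Stfa1 and BC100530 83.8%, while Gm5483 and BC100530 shared 59.3%. A match of letters is a description of the reference genome and not a site shown to be bound, and CDF1 mice do not carry the reference strain's genome.

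Libraries held 9354534 to 13368010 reads assigned to rows. Defining markers of lung were present in all 4, yet cancer control stood apart, since its summed level of the 11 lung epithelial and endothelial markers was 151442 normalized read counts against 663021 to 805140 in the others. Hemoglobin rows took 14.3% of the reads in normal control, 14.2% in normal exercise, 1.43% in cancer control and 31.4% in cancer exercise. Some of these rows had similar reads, in normal control 285643 in Hbb-bs and 277447 in Hbb-b1, and 99117 in Hbb-bt and 90953 in Hbb-b2. Whether they count the same reads, which would inflate these shares, was not tested. The tumor effect without exercise and the effect of exercise with tumor rest on cancer control, which stood apart by its lung markers. Cancer exercise held the largest share of hemoglobin. The effect of exercise with tumor, the tumor effect with exercise and tumor plus exercise rest on that library. In bulk RNA, more cells that carry a transcript and more transcript per cell cannot be told apart.

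The summed level of the family was lowest in the normal control lung, higher in the normal exercise lung, higher again in the cancer control lung and highest in the cancer exercise lung. The sum was 56.4, 167, 1433 and 8894 normalized read counts in that order, or 5.84, 7.39, 10.49 and 13.12 as log2(normalized read count + 1). The reads behind these levels were 67, 182, 1308 and 7611. Set against all assigned reads, without the authors' normalization, they made 5.15 CPM without tumor or exercise (95% Wilson interval 4.05 to 6.54) and 14.2 CPM with exercise alone (12.3 to 16.5). With tumor they made 140 CPM at rest (132 to 148) and 569 CPM with exercise (557 to 582). These 4 counting intervals did not overlap. The normal control level was 0.634% of the cancer exercise level, the normal exercise level 1.87% and the cancer control level 16.1%.

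Each of the 7 members followed the same order. Among all 15164 rows with a mean normalized read count of at least 4, 671 or 4.42% had it. In 27 rows, 0.178% of those tested, every step of the order was 2-fold or more, and 7 of the 27 were the members. The members were chosen with these values known, so their number among the 27 is a description.

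**Figure D1:**
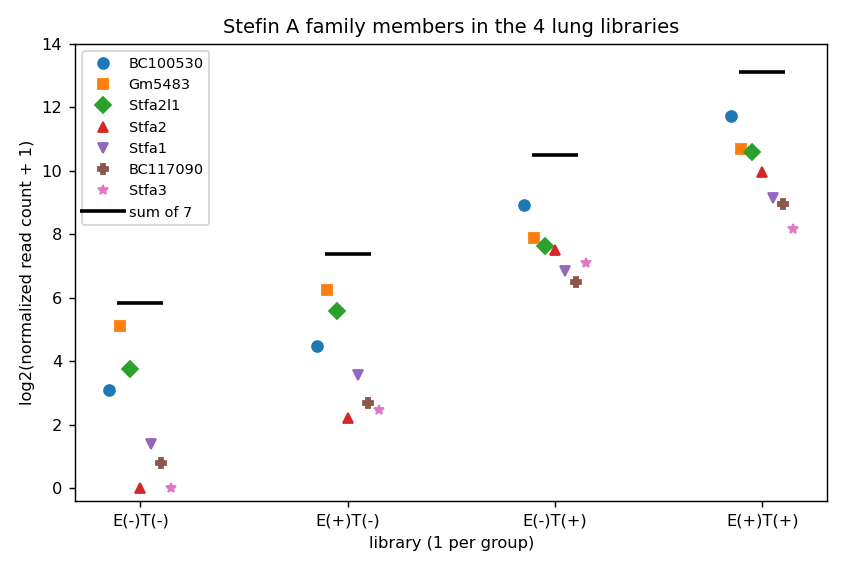
Level of each member, as log2(normalized read count + 1), in the 4 lung libraries, 1 per group, with points for members and a bar for the sum of 7. The sum stands at 5.84, 7.39, 10.49 and 13.12 from left to right, and Stfa2 and Stfa3 lie at 0 in E(-)T(-).

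BC100530, a stefin of the group with Stfa1, had the highest mean level. Its log2 levels were 3.10 in normal control, 4.46 in normal exercise, 8.91 in cancer control and 11.72 in cancer exercise, from 9, 23, 439 and 2893 reads. Both libraries with tumor lay far above both without. Stfa1, its closest copy, had log2 levels of 1.38, 3.58, 6.85 and 9.13 in the same order of libraries, from 2, 12, 104 and 479 reads. BC117090, also of this group, had 0.80, 2.69, 6.51 and 8.95, from 1, 6, 82 and 422 reads. Within the group, BC100530 was above Stfa1 and Stfa1 above BC117090 in every library.

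Stfa2 and Stfa2l1, whose coding sequences are nearly the same, differed most where there was no tumor. Stfa2l1 had log2 levels of 3.77, 5.58, 7.64 and 10.59 from 15, 51, 181 and 1321 reads. Stfa2 had 0.00, 2.21, 7.50 and 9.96 from 0, 4, 164 and 850 reads. In normal control the absence of a read allows Stfa2 a level of up to 2.55 normalized read counts, the worth of 3 reads. With tumor and no exercise the pair had similar reads, 164 and 181.

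Gm5483 and Stfa3 are the members outside both groups of copies, and in normal control they lay at opposite ends of the range. Gm5483 had log2 levels of 5.12, 6.24, 7.87 and 10.68 from 40, 81, 213 and 1398 reads, and it was the highest member in both libraries without tumor. Stfa3 had 0.00, 2.47, 7.11 and 8.18 from 0, 5, 125 and 248 reads, and it was the lowest member in cancer exercise. Stfa3 is the member whose annotated transcript shares no 75-base window with another gene.

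The division of the family's reads among the members differed between the libraries. These shares do not depend on the scaling of the libraries, and since the reads come from transcript ends they were not divided by length. Gm5483 took 59.7% of the family's reads without tumor or exercise (95% Wilson interval 47.7 to 70.6) and 44.5% with exercise alone (37.5 to 51.8). With tumor it took 16.3% at rest (14.4 to 18.4) and 18.4% after exercise (17.5 to 19.3). BC100530 went the other way, with 13.4% (7.23 to 23.6) and 12.6% (8.57 to 18.2) in the libraries without tumor and 33.6% (31.1 to 36.2) and 38.0% (36.9 to 39.1) in the libraries with tumor. For both genes the intervals of the libraries without tumor did not overlap those of the libraries with tumor. With tumor, Stfa3 made 9.56% at rest (8.08 to 11.3) but 3.26% after exercise (2.88 to 3.68), beyond counting error. Stfa2 made 12.5% (10.9 to 14.4) and 11.2% (10.5 to 11.9) in the libraries with tumor, which overlap.

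**Figure D2:**
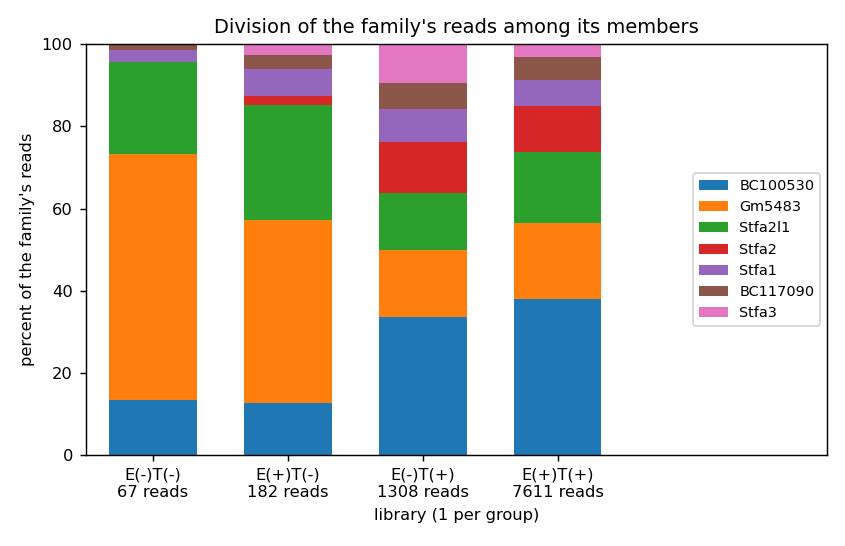
Percent of the family's reads taken by each member, in stacked bars for the 4 libraries, with the family's reads under each bar. Gm5483 takes 59.7% in E(-)T(-) and 18.4% in E(+)T(+), and BC100530 takes 13.4% and 38.0%.

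For the effect of exercise without tumor, E(+)T(-) vs. E(-)T(-), the family sum was 1.55 higher, a 2.92-fold difference on the log2(normalized read count + 1) scale of the files. The exact interval of the log2 read ratio was 1.14 to 1.98. All 7 members were at least 2-fold higher, against 5.28% of all rows tested, and 0 of 7 were at least 8-fold higher, against 0.422%. Stfa2, Stfa3 and BC117090 are in this count only because their levels with tumor carried them past the filter. In the libraries compared here they had 0.00 and 3.62, 0.00 and 4.53, and 0.75 and 5.45 normalized read counts. The median of the 7 was 1.89 against 0.00 over all rows. The members' differences ran from 1.11 in Gm5483 to 2.47 in Stfa3. The reads were few, and the exact intervals of Stfa2, with 4 reads against 0, Stfa3, with 5 against 0, and BC117090, with 6 against 1, all reached 0. With the 2 members without a read in normal control set at 3 reads there, these 2 were no longer past the limit, 5 of 7 members were, and the median was 1.37. Genes with 0 reads in normal control and at least 500 normalized read counts in cancer control, 9 in number, had a level with exercise alone that was 0.642% to 2.18% of the level with tumor alone, with a median of 1.47%. The family stood there at 11.6% of its cancer control level, and with that median share taken out of normal exercise the difference of its sum was 1.35 and 5 of 7 members passed the 2-fold limit, without BC100530 at 0.81 and Stfa2 at 0.98. The family's normal exercise level was also 1.87% of its cancer exercise level. Among the 3773 rows with at least 500 normalized read counts in cancer exercise, the lowest such share was 0.224%, in Bcl2l15, from 2 reads against 681, and this gene was picked after its value was seen. With that share of cancer exercise taken out the difference was 1.37 and 6 members passed, without BC100530 at 0.76. With the exact upper limit of the share, 0.836%, the difference was 0.87 and 3 members passed, Stfa1, Stfa3 and Stfa2l1. In these 3 settings nothing was taken out of normal control, and 4.87%, 5.24% and 5.12% of all rows passed. In the last, BC100530 and Stfa2 were left at 0 in normal exercise, so that BC100530 turned to -3.10 and Stfa2 stood at 0.00, with BC117090 at 0.41 and Gm5483 at 0.82. Eosinophil and mast cell markers were at least 2-fold higher in 3 of 9 and lower in 0 for exercise without tumor, with a median of 0.46. T cell markers were higher in 1 and lower in 1 of 6. Of all rows, 5.28% were at least 2-fold higher and 4.70% lower. Lung, red cell, B cell and monocyte and macrophage markers had 0 past the limit either way. The part of these cells in the family's difference was not tested.

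For the tumor effect without exercise, E(-)T(+) vs. E(-)T(-), the family sum was 4.64 higher on the log2 scale, or 25.0-fold, with an exact interval of 4.30 to 5.03. All 7 members were at least 2-fold higher, against 20.6% of all rows, and 6 of 7 were at least 8-fold higher, against 4.27%. The median of the members was 5.70 against -0.03 over all rows, and it was 5.70 also with the members at 0 set at 3 reads. Gm5483, which had the most reads in normal control, differed least, by 2.75 (2.29 to 3.30). Stfa2l1 was 3.87 higher (3.20 to 4.83), and BC100530 was 5.82 higher (5.04 to 7.11). Against a floor of 3 reads in normal control, Stfa2 was at least 70.5-fold and Stfa3 at least 53.7-fold higher with their cancer control reads taken as exact. Their exact log2 intervals, which allow for counting error in both libraries, began at 5.82 and 5.43. All 11 lung markers were at least 2-fold lower in this comparison, against 25.7% of all rows, with a median of -2.39. Red cell markers were lower in 8 of 8 with a median of -3.40, B cell markers in 4 of 4 with -6.74, T cell markers in 5 of 6 with -3.08, and eosinophil and mast cell markers in 7 of 9 with -2.04. The part of these cells in the family's difference was not tested.

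For the effect of exercise with tumor, E(+)T(+) vs. E(-)T(+), the family sum was 2.63 higher, or 6.20-fold, with an exact interval of 2.55 to 2.72. All 7 members were at least 2-fold higher, against 24.3% of all rows, and 0 of 7 were at least 8-fold higher, against 3.71%. In this comparison 6 members ran from 2.28 in Stfa1 (1.99 to 2.62) to 2.95 in Stfa2l1 (2.74 to 3.19), and these 2 intervals did not overlap. Stfa3 was 1.08 higher (0.77 to 1.41), below the intervals of the other 6, of which the lowest, that of Stfa1, began at 1.99. Scaled by library totals alone, a setting that put the median of all genes at -0.60, from 0.01, the difference of Stfa3 was 0.47 and 6 of 7 members passed the limit, against 16.2% of all rows. The lung epithelial and endothelial markers, 11 of 11 of which were at least 2-fold higher here, had a median difference of 2.55. T cell markers were higher in 6 of 6 with a median of 2.68, B cell markers in 4 of 4 with 4.97, red cell markers in 8 of 8 with 5.14, and eosinophil and mast cell markers in 8 of 9 with 2.09. The part of these cells in the family's difference was not tested.

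For the tumor effect with exercise, E(+)T(+) vs. E(+)T(-), the family sum was 5.73 higher, or 53.0-fold, with an exact interval of 5.52 to 5.95. All 7 members were at least 2-fold higher, against 14.9% of all rows, and all 7 were at least 8-fold higher, against 2.26%. Their median was 5.72 against 0.00 over all rows. Stfa2 was 7.75 higher (6.72 to 9.96), BC100530 was 7.26 higher (6.74 to 7.98) and BC117090 was 6.26 higher (5.35 to 7.94). Gm5483 differed least, by 4.44 (4.13 to 4.80). The lung markers differed by a median of -0.10 here, with 0 of 11 past 2-fold. Red cell markers were higher in 8 of 8 with a median of 1.63, and monocyte and macrophage markers in 8 of 11 with 2.01. T cell and B cell markers were at least 2-fold lower in 2 of 6 and 2 of 4, against 13.0% of all rows, and eosinophil and mast cell markers were higher in 1 and lower in 2 of 9. The part of these cells in the family's difference was not tested.

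**Figure D3:**
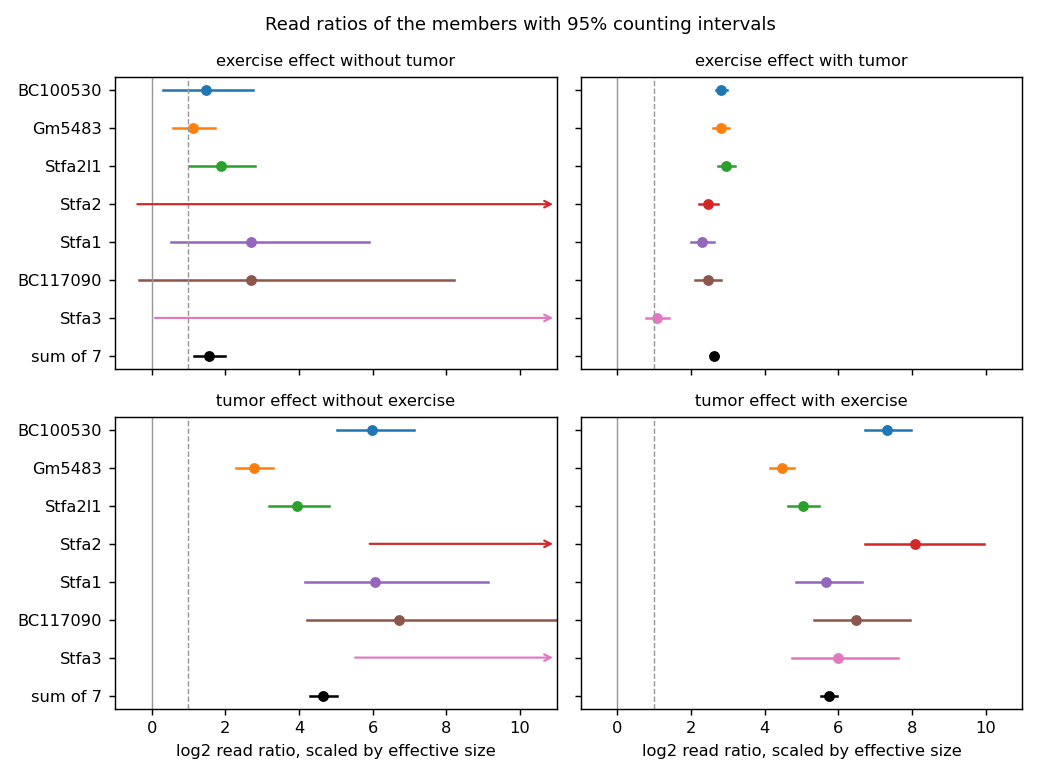
Log2 ratio of reads between libraries for each member and the sum of 7, scaled by effective library size, with 95% exact intervals that cover counting error only. Solid and dashed lines mark equal and 2-fold levels, and an arrow without a point marks a member with no read in E(-)T(-); in the panel of exercise with tumor, Stfa3 lies below the other members.

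Between the extremes, E(+)T(+) vs. E(-)T(-), the family sum was 7.28 higher, or 155-fold, with an exact interval of 6.94 to 7.66. All 7 members were at least 2-fold higher, against 14.8% of all rows, and 7 of 7 at least 8-fold, against 3.03%. Stfa2 differed by 9.96 and BC100530 by 8.63, an order that turned with a pseudocount of 4, at 7.96 and 8.20. Against a floor of 3 reads in normal control Stfa2 was at least 390-fold higher with its cancer exercise reads taken as exact, and the exact log2 interval of its read ratio, which allows for counting error in both libraries, began at 8.31. The median of the members was 8.14, and 7.76 with the members at 0 set at 3 reads. Mature neutrophil markers were at least 2-fold higher in 24 of 26 here with a median of 3.76, monocyte and macrophage markers in 7 of 11 with 2.02, and red cell markers in 8 of 8 with 1.76. T cell markers were lower in 2 of 6 and B cell markers in 2 of 4, against 14.4% of all rows, eosinophil and mast cell markers were higher in 4 and lower in 2 of 9, and 0 of 11 lung markers passed the limit. The part of these cells in the family's difference was not tested.

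The exercise effect on the family sum was 1.09 larger with tumor than without on the log2 scale, a difference that the design does not allow to be tested. It was larger by 1.69 in Gm5483, 1.44 in BC100530 and 1.15 in Stfa2l1. Scaled by library totals alone these values were 0.57 for the sum and 1.17, 0.92 and 0.63 for the 3 members. With 0.836% of the cancer exercise level taken out of normal exercise, as above, the sum's value was 1.76, and it was 1.98 in Gm5483 and 1.60 in Stfa2l1. BC100530, left at 0 in normal exercise, then had 5.91. In the other members the value depended also on the pseudocount, since it rests on 0 to 12 reads in the libraries without tumor. It was 0.08 in Stfa1, 0.25 in Stfa2, 0.56 in BC117090 and -1.39 in Stfa3, and with a pseudocount of 4 it was 0.84, 1.51, 1.41 and -0.03 in the same order. With library totals alone it was -0.43, -0.40, 0.05 and -2.04, so that the sign turned in Stfa1 and Stfa2, and with 0.836% taken out it was 0.79, 2.46, 2.03 and -0.56. These comparisons share libraries, so they are not independent of each other.

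The other stefins of the files did not all share the order of the family. Cstb, which codes for stefin B, the widely expressed sister of stefin A, had log2 levels of 10.00, 10.11, 12.40 and 11.07, from normal control to cancer exercise. It was thus highest in cancer control, whereas every stefin A member was highest in cancer exercise. In normal lung Cstb, with 1205 reads in normal control, far exceeded the 67 reads of the whole family, and in cancer exercise, with 1832 reads, it was below the family's 7611. 2010005H15Rik and Gm5416 are stefin genes that lie between members of the cluster. 2010005H15Rik had 8, 5, 38 and 42 reads from normal control to cancer exercise, and Gm5416 had 0, 7, 17 and 28. Csta1 had 4 reads or fewer in every library.

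The cysteine cathepsins did not move together as the family did. The list of 11 also holds legumain, a lysosomal protease of another family that stefins are not known to inhibit. Of the 11, 0 were at least 2-fold higher and 1 was lower for exercise without tumor, against 5.28% and 4.70% of all rows. For tumor without exercise 3 were higher and 4 lower, against 20.6% and 25.7% of all rows. For exercise with tumor 3 were higher and 2 lower, against 24.3% and 17.7%, so that these shares were near those of all rows. For tumor with exercise 1 was higher and 0 were lower, against 14.9% and 13.0%, and the list's median was 0.51. Ctsl, coding for the endopeptidase cathepsin L, had log2 levels of 10.59, 10.74, 14.45 and 11.72 from normal control to cancer exercise and was highest in cancer control, as Cstb was. Ctsh, coding for the aminopeptidase cathepsin H, went the other way, with 11.94, 12.24, 11.04 and 12.75, and was lowest in cancer control and highest in cancer exercise. Ctsb, coding for cathepsin B, had 11.27, 10.96, 12.38 and 11.93. Ctss, coding for cathepsin S of antigen-presenting cells, had 11.84, 11.95, 12.23 and 12.63, a spread of less than 2-fold. A further list held the type 2 cystatins and kininogens, the secreted branch, and also other genes of the cystatin superfamily such as Ahsg and Fetub. Of its 15 genes, 7 passed the filter. Of these 7, 3 were at least 2-fold higher and 1 lower for tumor without exercise, against 20.6% and 25.7% of all rows, and 4 were higher and 0 lower for tumor with exercise, against 14.9% and 13.0%. For exercise 1 was higher and 1 lower without tumor, against 5.28% and 4.70%, and 2 were higher and 1 lower with tumor, against 24.3% and 17.7%. Cst3, coding for cystatin C, stood at 12.94, 12.70, 13.09 and 11.74 and was lowest in cancer exercise. For tumor without exercise Cst3, Cst7 and Cst8 differed by 0.15, 0.27 and -1.755. The 3 that were higher there were other genes of the list, among them Ahsg at 4.93.

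Markers of neutrophils moved with the family in part. The summed level of 26 mature neutrophil markers was 7900, 18490, 16168 and 238947 normalized read counts from normal control to cancer exercise. All 26 passed the filter, and 10 were at least 2-fold higher for exercise without tumor, against 5.28% of all rows. For tumor without exercise 14 were higher and 4 lower, against 20.6% and 25.7% of all rows. For exercise with tumor 26 were higher, against 24.3%, and for tumor with exercise 24 were higher and 1 lower, against 14.9% and 13.0%. S100a8 and S100a9 carried much of the sum. Of the 26 markers, 15 were higher and 11 lower in cancer control than in normal exercise, and the sum of the other 24 was 4379, 7630, 8075 and 60015 in the order given. The stefin A members are not on this list, and the ratio of the family's sum to the list's sum was 0.714% in normal control, 0.902% in normal exercise, 8.87% in cancer control and 3.72% in cancer exercise. Against the sum of S100a8 and S100a9, the abundant calcium-binding proteins of neutrophil cytosol, the ratio was 1.60%, 1.54%, 17.7% and 4.97%. Against the 24 markers without S100a8 and S100a9, a split made after the values were seen, it was 1.29%, 2.18%, 17.8% and 14.8%. By all 3 measures the ratio was higher in both libraries with tumor than in both without. The gap between the libraries with tumor was smaller without S100a8 and S100a9. Of the 24 markers Lrg1 was the highest in cancer control, with 3110 reads against 1098 in normal exercise. It carried much of their sum there, and the sum and ratio without Lrg1 were not computed. Of 12 genes of immature neutrophil granules, 11 passed the filter. Of these 11, 5 were at least 2-fold higher for exercise without tumor, with a median of 0.47, 8 for tumor without exercise, with 1.69, 9 for exercise with tumor, with 3.47, and 10 for tumor with exercise, with 3.71, against the same shares of all rows as for the mature list. In each of the first 3 of these comparisons 1 of the 11 was lower, against 4.70%, 25.7% and 17.7% of all rows. For tumor plus exercise 11 of 11 were higher, with a median of 5.06, against 14.8%. The ratio of the family's sum to theirs was 3.16%, 6.71%, 33.7% and 46.7%. Single genes carried much of their sum. Chil3 had 1525 of the list's 2099 reads in normal control and 8431 of 16297 in cancer exercise. Ltf had 1560 of 3884 reads in cancer control. The ratio without these genes was not computed. The part of both neutrophil lists in the family's differences was not tested.

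**Figure D4:**
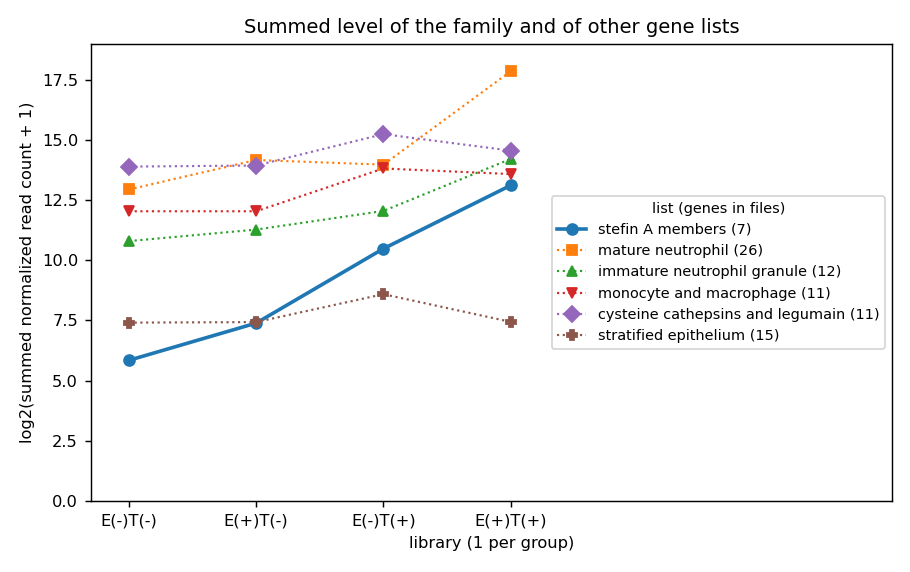
Summed level of the family and of 5 other gene lists in the 4 libraries, as log2(summed normalized read count + 1), with the number of genes in the files after each name. The family goes from 5.84 to 13.12, and the mature neutrophil list from 12.95 in E(-)T(-) to 17.87 in E(+)T(+) with 13.98 in E(-)T(+).

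Markers of other cells known to carry stefin A, or to be near neutrophils in kind, are given in the same way, and their part in the family's levels was not tested. The 11 monocyte and macrophage markers summed to 4217, 4215, 14484 and 12330 normalized read counts from normal control to cancer exercise, so that they too were higher in both libraries with tumor. Of the 11, 5 were at least 2-fold higher and 0 lower for tumor without exercise, against 20.6% and 25.7% of all rows, and 8 were higher and 0 lower for tumor with exercise, against 14.9% and 13.0%. For exercise without tumor 0 were past the limit either way, and for exercise with tumor 3 were higher and 4 lower, against 24.3% and 17.7%. Ly6c2, of circulating monocytes, was 3.43 higher for exercise with tumor, and C1qa, a complement gene of macrophages, fell by 1.27. The 15 markers of stratified epithelium summed to 169, 172, 385 and 173. Of these 15, 6 passed the filter, and Krt6a, Krt6b, Krt13, Sprr1b and Dsg3 were at 0 in every library. Krt10 and Sbsn carried most of this sum. For exercise without tumor 1 of the 6 was at least 2-fold higher and 1 lower, against 5.28% and 4.70% of all rows. For tumor without exercise 3 were higher and 0 lower, against 20.6% and 25.7%. For exercise with tumor 0 were higher and 2 lower, against 24.3% and 17.7%. For tumor with exercise 3 were higher and 1 lower, against 14.9% and 13.0%. For tumor plus exercise 3 were higher and 1 lower, against 14.8% and 14.4%. Krt10 had 120, 111, 263 and 43 reads from normal control to cancer exercise, with the fewest in cancer exercise. Krt5 had 0, 0, 18 and 1 reads, Lor 14, 5, 9 and 13, and Sbsn 48, 61, 37 and 55. Sprr1a had 1, 0, 17 and 28 reads, with the most in cancer exercise.

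The 10 genes with a pattern most like the family sum were taken from 11209 genes with a mean normalized read count of at least 50, by the Euclidean distance between log2 levels centred on their mean over the 4 libraries. The nearest was Asprv1, coding for an aspartic protease known from epidermis and neutrophils, at a distance of 0.79. Il1r2, the decoy receptor of interleukin 1, followed at 0.83, with log2 levels of 3.86, 6.29, 8.67 and 12.07 from normal control to cancer exercise. Ifitm6 was at 1.42 and Mmp8, the collagenase of neutrophil granules, at 1.47. These 4 are on the mature neutrophil list, and 0 of the 10 are on the immature list. The rest were Ahsg at 1.68, Chl1 at 1.69, Apoc4-apoc2 at 1.72, Serpina3n at 1.73, Apoc2 at 1.74 and Cxcl10 at 1.96. Ahsg codes for fetuin-A, a secreted member of the cystatin superfamily made in liver, and had 3, 16, 95 and 154 reads. The rows Apoc4-apoc2 and Apoc2 had nearly the same reads, 10, 13, 191 and 278 against 10, 13, 198 and 279. Whether they count the same reads was not tested. The members' own distances from their sum ran from 0.62 in Stfa1 to 2.49 in Stfa2, so some of these genes were nearer to the sum than several members were. With 4 libraries the likeness is a description.

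**Figure D5:**
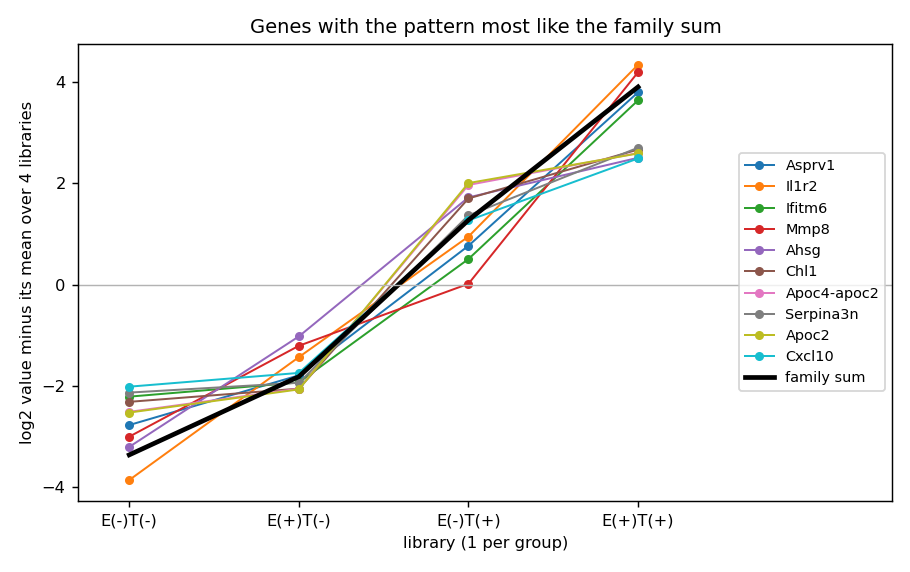
Log2 level minus its mean over the 4 libraries for the family sum, as a thick line, and for the 10 genes nearest to it. Asprv1 and Il1r2, at distances of 0.79 and 0.83, run closest to the family, and the genes at larger distances mostly span a smaller range.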

How the data were processed

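The members and all gene lists were chosen with earlier results of these data known. Lung RNA of 4 libraries was sequenced from transcript ends (QuantSeq 3' mRNA-Seq, single 75-base reads). The authors aligned reads with Bowtie2 and counted them per gene with bedtools coverage. The authors normalized the counts by the quantile method of edgeR and deposited log2(normalized read count + 1) per gene. The submitters' processing notes name the build mm10. Versions, annotation and use of strand were not given in the sources used here, so close copies may share reads and an antisense overlap cannot be told apart.

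Whole reads were recovered in R 4.3.3 by inverting a negative binomial quantile adjustment with a fitted dispersion of 0.372. Reads put back through it gave 100% of the deposited log2 values within 0.001. The steps were tested on simulated data. Without tumor, the libraries at rest and after exercise held 13017444 and 12780396 assigned reads, and with tumor they held 9354534 and 13368010. In the same order 3 reads were worth 2.55, 2.76, 3.29 and 3.51 normalized read counts.

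Libraries were compared by subtracting the log2 values that the authors deposited, on the log2(normalized read count + 1) scale, which understates changes of low genes. The family sum added the normalized read counts of the 7 members before taking the logarithm. With 1 library per group no test was made. A row was called at 2-fold among 15164 rows with a mean of at least 4. Read ratios carry exact (Clopper-Pearson) and shares Wilson 95% intervals, computed in Python 3.11.15 with scipy 1.17.1. Reads carried no molecular identifiers, so PCR copies are counted as molecules and intervals and floors cover counting error only. Named were the 7 members, up to 5 genes of each list with the highest mean, markers at 0 in every library, and the 10 genes nearest to the family sum. Also named were Gm15845, which overlaps BC100530, and Bcl2l15, for its lowest share of the cancer exercise level. The 20 other rows that were 2-fold or more higher at every step were named too. Coding sequences came from GENCODE vM21 on GRCm38 and were aligned with Biopython 1.88, and promoters came from RefSeq. Alternatives were another pseudocount, filter, fold limit, scaling and makeup of the sum. Shares of cancer exercise taken out of normal exercise, the share of cancer control taken out for single members and their counts, members at 0 set at 3 reads, the alternatives for the difference between exercise effects, and the neutrophil list without S100a8 and S100a9 were chosen after seeing the data. The planned comparison of protein sequences was not made.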

Additional observations from a re-analysis of the deposited data

How the results depend on the processing

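No paired analysis was possible because each group held 1 library, and leaving out a replicate was not possible for the same reason. The family sum kept its direction under every alternative tried in all 5 comparisons, and 31 of the 41 values that an alternative could change moved by less than counting error. Scaling by library totals alone gave 2.03 for exercise with tumor, 5.31 for tumor with exercise and 6.77 for tumor plus exercise, where it put the median of all genes at -0.60, -0.41 and -0.52, from 0.01, 0.00 and -0.02, and moved the share of rows at least 2-fold higher from 24.3%, 14.9% and 14.8% to 16.2%, 9.35% and 9.03%. For tumor without exercise it put that median at 0.07, from -0.03. Library totals without hemoglobin gave 2.55 for exercise with tumor, and 6 of 7 members then passed the 2-fold limit, against 23.3% of all rows. Without BC100530, the highest member, the sum differed by 4.26 for tumor without exercise, 2.53 for exercise with tumor, 5.23 for tumor with exercise and 6.79 for tumor plus exercise. For exercise without tumor, 3 members passed a fold limit of 4, against 1.44% of all rows, and 5 members passed 2-fold with a pseudocount of 4 in place of 1, against 3.48%. With 0.836% of the cancer exercise level taken out of normal exercise, an alternative chosen after seeing the data, the sum differed by 0.87 for exercise without tumor, where 3 members passed, and 6.40 for tumor with exercise. BC100530, left at 0 in normal exercise and unchanged in normal control, then reversed, to -3.10, for exercise without tumor. Of 112 values of single members, 96 stayed within counting error, 15 moved and 1 reversed. For members with few reads this count says little, since their intervals were wide or had no upper end. For exercise without tumor, Stfa2 went from 2.21 to 0.00 with 0.836% taken out and still counted as within counting error. Depth limits what can be said of single members without tumor, where 4 of the 7 had 12 reads or fewer in both libraries.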

Other observations

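Besides the 7 members, 20 rows were 2-fold or more higher at every step from normal control through normal exercise and cancer control to cancer exercise. They are named here after their values were seen. Mmp8, Il1r2 and Mpo are on the neutrophil lists. Alb, Fgg and Plg code for plasma proteins made in liver. The others were Serpina3i, Serpina3k, Ddit4, Socs3, Pla2g7, Npy, Ackr1, Scrg1, Lrrc25, Tnnc2, Prss22, Snora3, Pla2g4c and Gm5150.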
